A study of Rattus norvegicus with 9 samples.

Results

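The chemokine receptors Cxcr3 and Cxcr6 and their ligands were followed across the spinal cords of Sham, SCI and SCI + SCS rats. The genes were selected by symbol as Cxcr3, its ligands Cxcl9, Cxcl10 and Cxcl11, and Cxcr6 with its ligand Cxcl16. Each symbol stood on a single row of the deposited table, so the axes made up 6 of 30507 rows, and all 6 genes passed the filter on low counts in every comparison.

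RNA was sequenced from the injury segments of the cord of wild-type female Sprague-Dawley rats killed at 35 dpi, 3 per group in 3 groups. The Sham group had a laminectomy only according to the study's methods, although the labels describe it as untreated. The SCI group had a thoracic contusion injury and no electrode, and the SCI + SCS group had the same contusion, implanted epidural electrodes and daily high-frequency spinal cord stimulation (SCS). The study's group with electrodes and no current was not sequenced. The effects of the electrode and of the stimulation therefore cannot be told apart in these libraries. All libraries carry the same batch label.

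CXCR3 is a receptor coupled to G proteins on activated T cells and natural killer (NK) cells, and it draws them along gradients of CXCL9, CXCL10 and CXCL11. These chemokines are induced by interferons in macrophages, glia and endothelium, with interferon gamma as the classic inducer. CXCR6 marks other activated and tissue-resident T and NK cells. Its ligand CXCL16 is made as a membrane protein that holds cells in place and becomes soluble when ADAM10 or ADAM17 cuts it.

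Library totals ran from 62844376 to 88358570 counts on genes, and 3 counts, taken as the smallest level this depth can show, corresponded to 0.034 to 0.0477 CPM (counts scaled to a common library total). These limits cover counting error only. The summed level of 15 skeletal muscle genes stood apart in the SCI group, at 4786 CPM in replicate 1, 164 CPM in replicate 2 and 1551 CPM in replicate 3, against 176 to 277 CPM in the other 6 libraries. Neuronal markers were present in every library, with summed levels of 4986 to 11138 CPM in the Sham group.

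All 6 genes of the axes rose with injury, from the Sham to the SCI group, and the libraries of these groups did not overlap for any of them. They passed |log2FC|>1 and an adjusted p under 0.05 in the quasi-likelihood test of edgeR, adjusted by Benjamini-Hochberg, the criteria used for every call here. Of all 17822 genes tested, 13.4% were higher and 13.6% lower by these criteria, and 32.6% were higher with no overlap. The median log2FC was 2.57 over the 6 genes and 0.02 over all genes. In bulk tissue, more cells of a type and more RNA per cell cannot be told apart. All 6 remained called when any one of the 6 libraries was left out, either muscle-rich SCI library included. The size of the difference moved most without Sham replicate 3, to log2FC values of 3.70 for Cxcr3, 3.32 for Cxcl10 and 3.03 for Cxcl16, and without SCI replicate 2 that of Cxcl10 was 2.13.

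Compared with the SCI group, 0 of the 6 genes passed in the SCI + SCS group by edgeR's quasi-likelihood test, where 0.00566% of 17663 genes passed in either direction. DESeq2 called 2 of them lower, Cxcr3 and Cxcr6, against 2.14% of genes lower by that tool. The same receptors passed the fold change threshold at an unadjusted p under 0.05 in edgeR, as did 2.56% of genes in that direction, and limma on the FPKM values called 0 of the 6. All 6 log2FC values were below 0, as were 50.7% of all genes, and the median was -0.70 against -0.01 over all genes. The SCI + SCS libraries lay below every SCI library for Cxcr3, Cxcr6 and Cxcl16, and over all genes 13.9% were lower and 15.7% higher without overlap.

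Compared with the Sham group, 4 of the 6 genes were higher in the SCI + SCS group, and these were the 4 ligands. The background was 6.28% of 17640 genes higher and 5.44% lower. Neither receptor passed. For 5 genes, the ligands and Cxcr3, the libraries did not overlap, as for 27.2% of all genes in that direction. The 2 comparisons with the SCI group share its libraries, and the 2 with the Sham group share theirs, so they are not independent of one another.

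**Figure D1:**
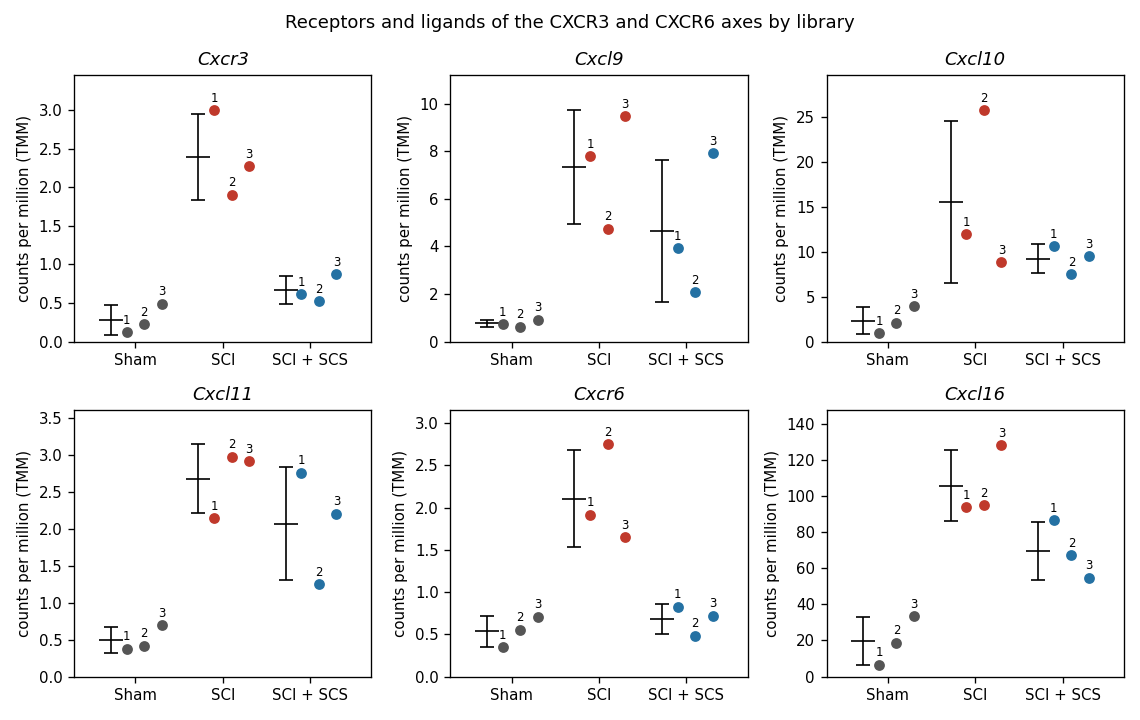
Normalized level of each gene in each library, in CPM (TMM) on a linear axis from 0, with 3 libraries per group numbered by replicate; the horizontal mark and bars to the left of the points are the mean and SD. All SCI points lie above all Sham points, and the SCI + SCS points of Cxcr3 (0.525 to 0.878) and Cxcr6 (0.482 to 0.828) lie below all SCI points.

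**Figure D2:**
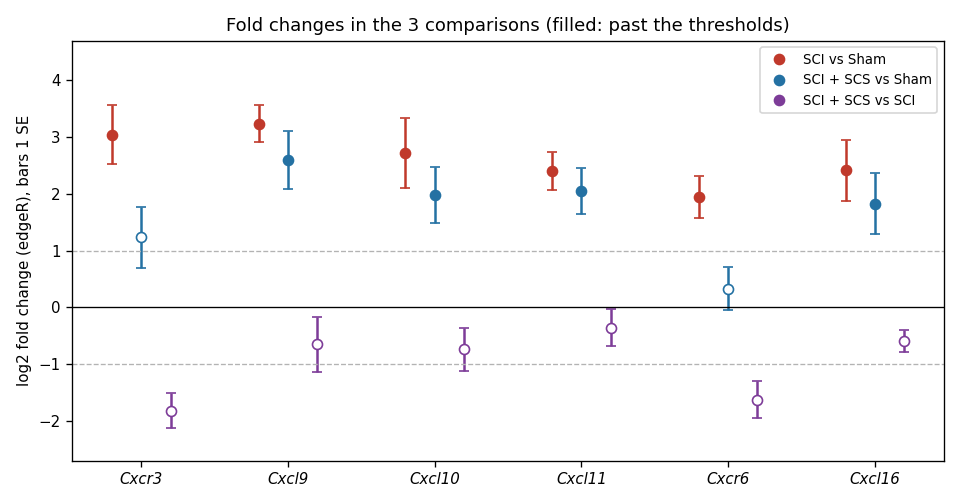
The log2 fold change of each gene in the 3 comparisons from edgeR, with bars of 1 SE and dashed lines at the threshold of 1 in either direction; filled points passed both thresholds. All 6 points of SCI against Sham and the 4 ligand points of SCI + SCS against Sham are filled, and the lowest points are those of Cxcr3 (-1.82) and Cxcr6 (-1.63) in SCI + SCS against SCI.

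Cxcr3 (ENSRNOG00000003305) lies on the minus strand at chrX:66844318-66846809 of mRatBN7.2, the build named in the submitters' processing notes. It had 8, 20 and 43 counts in Sham replicates 1 to 3. The SCI libraries had 236, 134 and 157 counts, and the SCI + SCS libraries had 44, 37 and 56. The SCI libraries were the highest, while the highest Sham library (0.492 CPM) lay just under the lowest SCI + SCS library (0.525 CPM). Mean levels were 0.282 ± 0.189 CPM for Sham, 2.39 ± 0.556 CPM for SCI and 0.673 ± 0.183 CPM for SCI + SCS (SD, n = 3 each). The log2FC between the SCI and Sham groups was 3.04 ± 0.52 (SE; adjusted p = 0.00462, edgeR's quasi-likelihood test). Between SCI + SCS and SCI it was -1.82 ± 0.31 (SE), and the adjusted p was 0.0719 by edgeR and 2.19e-05 by DESeq2. The SCI + SCS group differed from the Sham group by a log2FC of 1.24 ± 0.54 (SE; adjusted p = 0.119 by edgeR). This last value rested on the Sham libraries, since without Sham replicate 3 it was 1.90 with an adjusted p of 0.0321 by edgeR.

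Cxcr6 (ENSRNOG00000006319) is on the plus strand at chr8:123416325-123439526. The Sham libraries had 22, 49 and 62 counts. There were 151, 194 and 114 counts in the SCI libraries and 59, 34 and 46 in the SCI + SCS libraries. The SCI + SCS libraries fell within or near the Sham range and under every SCI library. Mean levels were 0.537 ± 0.182, 2.11 ± 0.576 and 0.677 ± 0.177 CPM (SD, n = 3 each) from Sham to SCI to SCI + SCS. The SCI group exceeded the Sham group by a log2FC of 1.95 ± 0.37 (SE; adjusted p = 0.00668, edgeR's quasi-likelihood test). The difference between SCI + SCS and SCI was -1.63 ± 0.33 (SE), with an adjusted p of 0.0793 by edgeR and 0.000446 by DESeq2. Against the Sham group, the SCI + SCS value was 0.33 ± 0.38 (SE; adjusted p = 0.529 by edgeR).

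The span of Cxcr6 lies wholly inside that of Fyco1, an autophagy adaptor gene on the opposite strand, and it contains the unnamed gene ENSRNOG00000070499 on its own strand. Whether the reads were counted by strand is not given in the sources used here, so reads of overlapping genes may not be told apart. Fyco1 had 1853 to 3298 counts per library and log2FC values of -0.01 between SCI and Sham and -0.07 between SCI + SCS and SCI, while the unnamed gene had 7 to 20 counts. The gene length implied by the deposited counts and FPKM (counts divided by gene length and library depth) was also uneven for Cxcr6. It was 6755 to 7059 bases in 7 libraries, 3430 bases in SCI replicate 2 and 2512 bases in SCI replicate 3. The cause was not tested. Counts, which this length does not enter, were used to compare Cxcr6 between libraries. For Cxcr3 the implied length stayed between 2054 and 2524 bases.

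The CXCR3 ligand genes stand side by side on the plus strand of chromosome 14, in the order Cxcl11 (chr14:15689424-15692271), Cxcl10 (chr14:15704758-15706975) and Cxcl9 (chr14:15722908-15728435). No other gene of the table starts between them or overlaps them. Their promoters are shown because the 3 genes were higher together in both injured groups than in the Sham group. The windows are RefSeq sequences of the GRCr8 build, a later assembly than that of the positions above, and run from 250 bases before to 50 bases after each gene's start (Cxcl9 at chr14:16006916-16007215, Cxcl10 at chr14:15988816-15989115 and Cxcl11 at chr14:15973478-15973777, all on the plus strand). RefSeq held a window for all 6 genes of the axes. Capitals mark matches, on either strand, to the interferon response element (TTTC repeated after a gap of 2 bases), the interferon gamma activated site TTCNNNGAA, the NF-κB consensus of 10 letters, and the T-box core GTGTGA.
Cxcl9: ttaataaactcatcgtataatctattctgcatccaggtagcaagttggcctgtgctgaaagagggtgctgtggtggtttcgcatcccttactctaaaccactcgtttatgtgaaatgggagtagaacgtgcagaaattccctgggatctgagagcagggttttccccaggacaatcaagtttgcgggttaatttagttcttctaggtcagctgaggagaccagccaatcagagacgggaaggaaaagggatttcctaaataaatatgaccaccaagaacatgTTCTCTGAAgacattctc
Cxcl10: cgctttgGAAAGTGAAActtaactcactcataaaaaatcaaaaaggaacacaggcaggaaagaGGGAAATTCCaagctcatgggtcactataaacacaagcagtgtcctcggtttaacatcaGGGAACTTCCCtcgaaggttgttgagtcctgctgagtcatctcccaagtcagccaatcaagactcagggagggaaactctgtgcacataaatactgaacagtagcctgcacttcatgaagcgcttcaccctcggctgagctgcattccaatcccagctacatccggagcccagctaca
Cxcl11: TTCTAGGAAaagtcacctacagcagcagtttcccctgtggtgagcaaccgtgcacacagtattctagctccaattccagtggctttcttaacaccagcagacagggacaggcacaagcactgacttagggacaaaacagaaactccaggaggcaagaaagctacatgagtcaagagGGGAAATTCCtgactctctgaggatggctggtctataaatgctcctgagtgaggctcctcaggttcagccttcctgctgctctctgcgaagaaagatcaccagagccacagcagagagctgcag

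Positions are counted from the gene's start, whose first base is 1. Cxcl10 held the interferon response element from -243 to -234 and NF-κB matches from -187 to -178, from -128 to -119 and from -127 to -118, of which the last pair overlap. Cxcl11 held an NF-κB match from -74 to -65, and its letters GGGAAATTCC are the same as those of the first NF-κB match of Cxcl10. It also held an interferon gamma activated site at the far end of the window, from -250 to -242. Cxcl9 held 1 interferon gamma activated site from 33 to 41, downstream of the RefSeq start. Whether that start matches the one in the deposited data was not tested, so the side of the start may depend on the annotation. The interferon response element occurred in 3.92% of the 33469 windows of this length in the RefSeq table, the interferon gamma activated site in 8.87%, the NF-κB consensus in 7.51% and the T-box core in 13.7%. Among the other genes, Cxcr6 held the T-box core from -189 to -184, and the windows of Cxcr3 and Cxcl16 held none of these motifs. In its window the Cxcr6 gene starts with the letters ATG, a start codon. This start may be that of the coding sequence, so the window may not be the promoter, which was not tested. A match describes letters only, and no match says only that these letters are not in this window.

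Cxcl9 (ENSRNOG00000022242), the ligand most dependent on interferon gamma in general, had 47, 56 and 81 counts in the Sham libraries. The SCI libraries had 615, 335 and 655 counts, and the SCI + SCS libraries had 280, 147 and 505. Every library of an injured rat was above every Sham library, and SCI + SCS replicate 3 lay within the SCI range. The mean was 0.767 ± 0.147, 7.34 ± 2.39 and 4.64 ± 2.98 CPM (SD, n = 3 each) from Sham to SCI to SCI + SCS. The log2FC of Cxcl9 was 3.24 ± 0.32 (SE; adjusted p = 0.00138, edgeR's quasi-likelihood test) between SCI and Sham. Between SCI + SCS and Sham it was 2.6 ± 0.51 (SE; adjusted p = 0.0135 by edgeR). The difference of -0.65 ± 0.48 (SE) between SCI + SCS and SCI did not pass (adjusted p = 0.449 by edgeR), and its size moved with single libraries, to -1.29 without SCI + SCS replicate 3 and -0.30 without SCI + SCS replicate 2.

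Cxcl10 (ENSRNOG00000022256), which type I interferons and NF-κB induce as well as interferon gamma, had 59, 185 and 344 counts in the Sham libraries. The SCI libraries had 939, 1812 and 614 counts, and the SCI + SCS libraries had 758, 527 and 607. SCI replicate 2, in which Cxcl10 was highest, was the SCI library in which Cxcl9 was lowest. The mean was 2.32 ± 1.52, 15.5 ± 8.97 and 9.21 ± 1.60 CPM (SD, n = 3 each) in the same order of groups. The log2FC was 2.72 ± 0.62 (SE; adjusted p = 0.0124, edgeR's quasi-likelihood test) between SCI and Sham and 1.98 ± 0.49 (SE; adjusted p = 0.0259) for SCI + SCS against Sham. For SCI + SCS against SCI it was -0.74 ± 0.38 (SE; adjusted p = 0.286 by edgeR), and without SCI replicate 2 it was -0.17.

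Cxcl11 (ENSRNOG00000022298), the ligand with the highest affinity for CXCR3, had 24, 37 and 61 counts in the Sham libraries. The SCI libraries gave 169, 210 and 202, and the SCI + SCS libraries 197, 88 and 141. SCI + SCS replicate 1 lay within the SCI range, and no injured library reached down to the Sham range. Mean levels were 0.499 ± 0.174, 2.68 ± 0.466 and 2.07 ± 0.767 CPM (SD, n = 3 each). The log2FC was 2.40 ± 0.34 (SE; adjusted p = 0.00263, edgeR's quasi-likelihood test) between SCI and Sham and 2.05 ± 0.40 (SE; adjusted p = 0.0140) for SCI + SCS against Sham. The difference between SCI + SCS and SCI was -0.36 ± 0.32 (SE; adjusted p = 0.532 by edgeR), with values from -0.62 without SCI + SCS replicate 1 to -0.10 without SCI + SCS replicate 2.

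Cxcl16 (ENSRNOG00000026647) is on the minus strand at chr10:55166723-55171592. The Sham libraries had 422, 1650 and 2929 counts, the SCI libraries 7413, 6700 and 8886, and the SCI + SCS libraries 6175, 4749 and 3495. The groups did not overlap once scaled for depth, with every SCI + SCS library between the Sham and SCI ranges. The mean was 19.6 ± 13.5, 106 ± 19.6 and 69.6 ± 16.1 CPM (SD, n = 3 each). Cxcl16 was higher in SCI than in Sham by a log2FC of 2.41 ± 0.54 (SE; adjusted p = 0.0113, edgeR's quasi-likelihood test) and in SCI + SCS than in Sham by 1.83 ± 0.54 (SE; adjusted p = 0.0428). Between SCI + SCS and SCI it was -0.60 ± 0.20 (SE), with an adjusted p of 0.136 by edgeR and 0.0299 by DESeq2, short of the fold change threshold in both. Its first 395 bases overlap those of Zmynd15, which runs the other way on the opposite strand. Zmynd15 had 16 to 204 counts per library and a log2FC of 1.87 for SCI against Sham (adjusted p = 0.0356 by edgeR).

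The ligand calls against the Sham group depended on single libraries. Without Sham replicate 2, 0 of the 6 genes were called in SCI + SCS against Sham, and the log2FC values were 2.47 for Cxcl9 (adjusted p = 0.0586 by edgeR), 1.91 for Cxcl10 (0.0907), 1.94 for Cxcl11 (0.0588) and 1.79 for Cxcl16 (0.127). One gene was called without SCI + SCS replicate 1, namely Cxcl9, and 2 were called without SCI + SCS replicate 2 or 3, namely Cxcl9 and Cxcl11. In those fits the log2FC of Cxcl10 lay between 1.87 and 2.11 and that of Cxcl16 between 1.64 and 1.97. Without Sham replicate 3, 5 were called, and the fifth was Cxcr3, while Cxcl10 was at 2.59 and Cxcl16 at 2.45. Cxcl9 fell to 1.97 without SCI + SCS replicate 3. Sham replicate 1 had the lowest level of its group for 5 of the 6 genes and Sham replicate 3 the highest for all 6. The summed level of 19 microglia and macrophage markers was 396, 619 and 809 CPM in Sham replicates 1 to 3, and its part in these values was not tested.

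Levels were compared between genes in FPKM, which accounts for length, although the uneven length of Cxcr6 in SCI replicates 2 and 3 raises its SCI value on this scale. In the SCI group Cxcl16 was the highest at 42.9 ± 10.3 FPKM (SD, n = 3), followed by Cxcl10 at 10.9 ± 6.84, Cxcl9 at 5.0 ± 1.69, Cxcl11 at 1.92 ± 0.482, Cxcr3 at 1.09 ± 0.115 and Cxcr6 at 0.590 ± 0.303. The group means stood in the same order in the Sham and SCI + SCS groups. Cxcl16 and Cxcl10 overlapped between libraries in the Sham group, with Cxcl16 at 2.61 FPKM in replicate 1 and Cxcl10 at 2.73 FPKM in replicate 3. Cxcl10 and Cxcl9 overlapped between libraries in all 3 groups. Cxcl9 and Cxcl11 overlapped in the Sham and SCI + SCS groups, and Cxcr3 and Cxcr6 overlapped in the Sham group. The ligands thus stood above their receptors throughout, with Cxcr3 at 0.307 ± 0.0777 FPKM and Cxcr6 at 0.101 ± 0.0272 FPKM in the SCI + SCS group (SD, n = 3 each).

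The make-up of the CXCR3 ligands varied from rat to rat. Cxcl10 gave 54.7%, 76.9% and 41.9% of the summed FPKM of Cxcl9, Cxcl10 and Cxcl11 in SCI replicates 1 to 3. It gave 45.5% to 70.9% in the Sham libraries and 48.6% to 69.2% in the SCI + SCS libraries, so the ranges overlapped. Cxcl9 was the main ligand in SCI replicate 3, where it gave 44.0%. Cxcl11 gave 9.13% to 18.6% over the 9 libraries.

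Ligand counts were also set against receptor counts of the same library, a measure chosen after the data were seen that does not depend on library size. There were 16.2, 13.9 and 11.3 counts of Cxcl9, Cxcl10 and Cxcl11 for each Cxcr3 count in the Sham libraries, 7.30, 17.6 and 9.37 in the SCI libraries, and 28.1, 20.6 and 22.4 in the SCI + SCS libraries. The SCI + SCS libraries were above all others. The mean of 23.7 ± 3.90 (SD, n = 3) in the SCI + SCS group exceeded the 11.4 ± 5.44 (SD, n = 3) of the SCI group by 12.3 (two-sided exact permutation test, p = 0.1, the smallest that 3 rats against 3 can give). After Benjamini-Hochberg adjustment over the 6 ratio comparisons, the exact permutation p was 0.2. The 13.8 ± 2.47 (SD, n = 3) of the Sham group was also exceeded in all SCI + SCS libraries (two-sided exact permutation p = 0.1, adjusted 0.2), while the SCI and Sham libraries overlapped (p = 0.5, exact).

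For Cxcl16 and Cxcr6 the ratio was 19.2, 33.7 and 47.2 in the Sham libraries, 49.1, 34.5 and 77.9 in the SCI libraries, and 105, 140 and 76.0 in the SCI + SCS libraries. SCI + SCS replicate 3 lay just below SCI replicate 3, so these groups overlapped (exact permutation p = 0.2, two-sided, adjusted 0.24). The SCI + SCS libraries were all above the Sham libraries (exact permutation p = 0.1, two-sided, adjusted 0.2). Taken in FPKM, the ratio did not overlap between the SCI + SCS and SCI libraries, but the uneven length of Cxcr6 enters that measure.

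**Figure D3:**
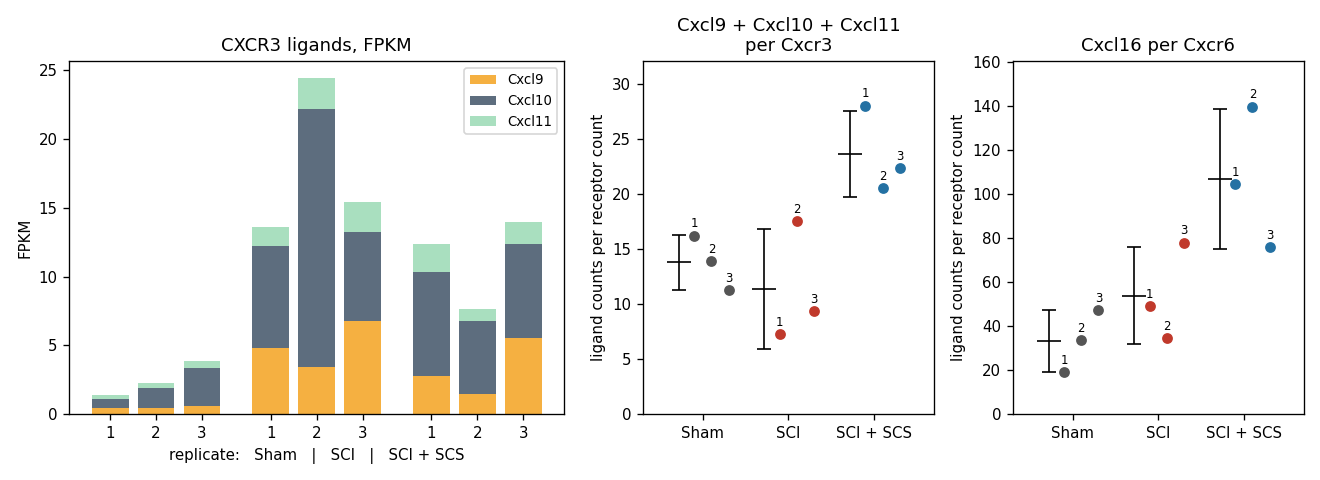
Left, stacked FPKM of Cxcl9, Cxcl10 and Cxcl11 in each library; middle and right, ligand counts per receptor count in the same library for the CXCR3 and CXCR6 axes, with points numbered by replicate and the group mean and SD to their left. The 3 SCI + SCS libraries have the highest ratios to Cxcr3 (20.6 to 28.1), while SCI + SCS replicate 3 (76.0) and SCI replicate 3 (77.9) nearly coincide for Cxcl16 per Cxcr6.

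The receptors were next set against lymphocyte transcripts. The T cell receptor chains Cd3d, Cd3e and Cd3g together had 31, 57 and 62 counts in the Sham libraries, 467, 375 and 269 in the SCI libraries, and 149, 32 and 78 in the SCI + SCS libraries. Per 100 of these counts there were 43.4 ± 22.9, 48.2 ± 11.5 and 72.3 ± 43.0 counts of Cxcr3 (SD, n = 3 each) from Sham to SCI to SCI + SCS. The ranges overlapped in all 3 comparisons, and for SCI + SCS against SCI the two-sided exact permutation p was 0.5 (0.6 adjusted over 6 such comparisons). SCI + SCS replicate 2, with 32 counts of the Cd3 chains, had the highest value, 116. Cxcr6 was at 85.6 ± 14.5, 42.1 ± 9.70 and 68.3 ± 34.3 per 100 (SD, n = 3 each), and every SCI library was below every Sham library (exact permutation p = 0.1, two-sided, adjusted 0.6). Without SCI + SCS replicate 2 the difference of the SCI + SCS from the SCI mean went from 24.1 to 2.45 per 100 for Cxcr3 and from 26.1 to 7.14 per 100 for Cxcr6.

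Against the summed counts of all 30 T and NK cell genes instead, the direction for SCI + SCS against SCI was the opposite. Cxcr3 stood at 0.891, 1.17 and 1.90 per 100 counts in the Sham libraries, 3.28, 2.15 and 2.76 in the SCI libraries, and 1.26, 1.38 and 1.64 in the SCI + SCS libraries. The SCI libraries were above both other groups (exact permutation p = 0.1, two-sided, in each comparison, adjusted 0.15). Cxcr6 per 100 counts of the list was 1.27 to 1.69 in the SCI + SCS libraries, below the 2.0 to 3.11 of the SCI libraries and the 2.45 to 2.88 of the Sham libraries (exact permutation p = 0.1, two-sided, adjusted 0.15, in both comparisons). How the receptors stood to lymphocyte RNA therefore depended on the genes taken to represent it.

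**Figure D4:**
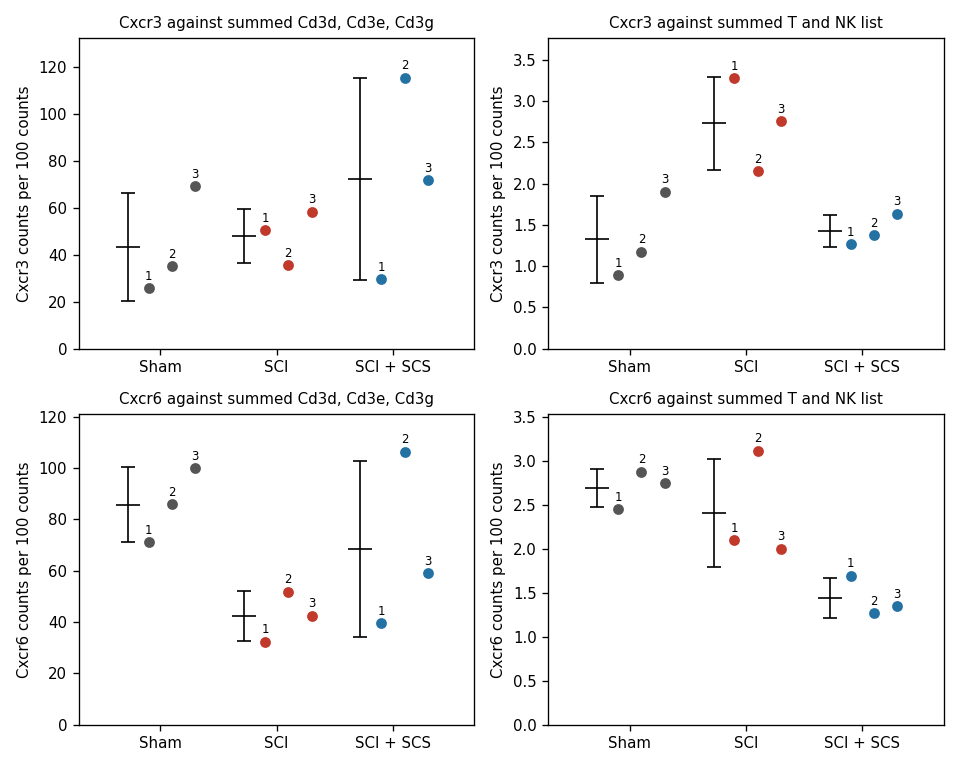
Counts of Cxcr3 (top) and Cxcr6 (bottom) per 100 summed counts of Cd3d, Cd3e and Cd3g (left) or of the 30 T and NK cell genes (right), by library, numbered by replicate, with the group mean and SD to the left of the points. On the left SCI + SCS replicate 2 is the highest for both receptors (116 and 106), and on the right all SCI + SCS points lie below all SCI points.

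Both receptors and the sum of the T and NK cell genes were highest in the SCI group. Between SCI + SCS and Sham the libraries overlapped for Cxcr6 but not for this sum. The T and NK cell genes had a summed level of 14.1 to 25.8 CPM in the Sham group, 82.3 to 91.3 in the SCI group and 38.1 to 53.6 in the SCI + SCS group, without overlap. Of the mean sums of 46.9 CPM in SCI + SCS and 19.8 CPM in Sham, Cd6 gave 10.8 and 2.85, Cd8a 8.02 and 0.273, and Cd8b 5.30 and 0.0991. By gene, 7 of the 21 tested were higher without overlap in SCI + SCS than in Sham, near the 27.2% of all genes. The summed Cd3 counts overlapped between these groups. Of 24 tested, 15 were higher and 0 lower in SCI than in Sham, with a median log2FC of 2.12, where 13.4% of all genes were higher. In SCI + SCS against SCI, 0 of 25 were called by edgeR, 10 were lower past the fold change threshold at its unadjusted p under 0.05 and 9 by DESeq2, as were 2.56% and 2.14% of all genes. All 25 had a log2FC below 0, with a median of -1.0. Against the Sham group 3 of 21 were higher, namely Cd8a, Cd8b and Cd6 (background 6.28%). Gzma and Ncr1, the genes of a killer-cell protease and an NK cell receptor, were at 0 in all Sham libraries. The part of cell number in the receptor levels was not tested.

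Cd8a, a co-receptor chain of cytotoxic T cells that rat NK cells and some macrophages also carry, had 13 to 32 counts in the Sham libraries, 851 to 1013 in the SCI libraries and 452 to 719 in the SCI + SCS libraries. It rose in SCI against Sham by a log2FC of 5.56 (adjusted p = 0.000783, edgeR's quasi-likelihood test) and in SCI + SCS against Sham by 4.86 (adjusted p = 0.00315). Cd8b, the partner chain, had 0 to 26, 630 to 803 and 343 to 381 counts in the same groups. Gzmk, a granzyme of memory T cells, rose in SCI against Sham by 3.74 (adjusted p = 0.00970 by edgeR), from 0 to 4 counts to 19 to 49. Between SCI + SCS and SCI, the smallest unadjusted p of the list belonged to Cd7, a T and NK cell surface gene, with a log2FC of -2.14 (adjusted p = 0.0719 by edgeR), and the next to Cd8b, at -0.85 (adjusted p = 0.0782). Cd6, a T cell adhesion receptor, was higher in SCI + SCS than in Sham by 1.92 (adjusted p = 0.0141 by edgeR).

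Of the interferon gamma and type 1 lymphocyte genes, 19 were tested in each comparison. In SCI against Sham, 10 were higher and 1 was lower (background 13.4% and 13.6%), with a median log2FC of 1.22. In SCI + SCS against SCI, 0 were called by edgeR or DESeq2 and 1 was lower at edgeR's unadjusted p (background 2.56%). Of the 19, 16 had a log2FC below 0, and the median was -0.48. Against the Sham group 4 were higher (background 6.28%) and 0 lower in SCI + SCS. Ifng itself, the gene of interferon gamma, had 0 counts in all Sham and SCI + SCS libraries and 5 counts at most in the SCI libraries, so it was not tested.

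Tbx21, which encodes T-bet, the factor that switches on Cxcr3 in T cells, rose from 3 to 9 counts in the Sham libraries to 24 to 47 in the SCI libraries (log2FC 2.30, adjusted p = 0.00990 by edgeR). Gbp2, an interferon-induced GTPase, rose by a log2FC of 2.25 in SCI (adjusted p = 0.00418 by edgeR) and by 1.69 in SCI + SCS against Sham (adjusted p = 0.0202). Irf1, the transcription factor that interferon gamma induces, had log2FC values of 1.55 and 1.08 in these comparisons and both passed (adjusted p = 0.00268 and 0.0153 by edgeR). Socs3, an inhibitor of cytokine signaling, rose by 2.61 in SCI and 2.03 in SCI + SCS against Sham (adjusted p = 0.00768 and 0.0235 by edgeR), whereas Il12a, a subunit of interleukin 12, fell by 1.38 on the log2 scale (adjusted p = 0.0154). Irf8, a factor of myeloid cells, rose by 1.69 in SCI + SCS against Sham (adjusted p = 0.0110 by edgeR). In SCI + SCS against SCI, Irf1 was at -0.48 and Gbp2 at -0.57 (adjusted p = 0.0774 and 0.0930 by edgeR), and for both the SCI + SCS libraries lay below the SCI libraries.

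Downstream of the receptors, 25 genes of chemokine receptor signaling were tested. In SCI against Sham 11 were higher and 3 lower (background 13.4% and 13.6%), so that the lower count was near the background. In SCI + SCS against Sham 9 were higher and 1 lower (background 6.28% and 5.44%). Between SCI + SCS and SCI, 0 of the 25 were called by edgeR, DESeq2 or edgeR's unadjusted p with the fold change threshold, and the median there was -0.14. The smallest p belonged to genes on the higher side, Rap1gap2 at 0.90 and Grk2, a kinase that desensitizes chemokine receptors, at 0.50 (adjusted p = 0.0773 and 0.0910 by edgeR, 0.000192 and 0.00764 by DESeq2). In both, every SCI + SCS library was above every SCI library. Without overlap, 4 of the 25 genes were higher and 2 lower, against 15.7% and 13.9% of all genes. The higher count was thus near the background. Rgs1, which ends signaling of the G proteins that CXCR3 and CXCR6 use, rose by a log2FC of 2.88 in SCI and 2.69 in SCI + SCS against Sham (adjusted p = 0.00134 and 0.00315 by edgeR). Plcb2, a phospholipase of blood cells that these G proteins activate, rose by 2.53 and 2.2 (adjusted p = 0.00122 and 0.00336 by edgeR). Was, an actin regulator of blood cells, rose by 2.45 and 2.07 (adjusted p = 0.00153 and 0.00452 by edgeR). The genes lower in SCI were Rasgrp1 (-2.88), an activator of Ras, Rap1gap2 (-1.65), an inhibitor of Rap1, and Arrb1 (-1.48), an arrestin that takes receptors off the membrane. Rasgrp1 was also the gene lower in SCI + SCS against Sham (-2.07, adjusted p = 0.0176 by edgeR). Against Sham, all 11 neuronal markers were lower in SCI, and their part in the fall of these genes was not tested.

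Of 14 genes that cleave, bind or clear the ligands, 7 were higher and 0 lower in SCI (background 13.4% higher), and 5 were higher and 0 lower in SCI + SCS against Sham (background 6.28%). Neither sheddase of CXCL16 was called in any comparison. Adam10 had a log2FC of -0.59 and Adam17 of 0.66 in SCI against Sham (adjusted p = 0.0597 and 0.00965 by edgeR, the latter under the fold change threshold). Dpp4, the protease that clips the CXCR3 ligands at their amino end, was at 0.75 with an SE of 0.91, and Ackr3, a receptor that clears CXCL11 and CXCL12, was at 0.64 (adjusted p = 0.0741 by edgeR). The calls were led by Mmp8, a neutrophil collagenase, with 0 to 27 counts in the Sham and 205 to 883 in the SCI libraries, by Pf4, a CXC chemokine of platelets and macrophages (log2FC 4.57, adjusted p = 0.00205 by edgeR), and by Ctsk, a cysteine protease (3.54, adjusted p = 0.00296). When SCI + SCS was set against Sham, Pf4 was at 3.53, Mmp8 at 3.52 and Ctsk at 2.31, and all 3 passed (adjusted p = 0.00828, 0.0342 and 0.0165 by edgeR). For SCI + SCS relative to SCI, 0 were called by edgeR, whereas DESeq2 and edgeR's unadjusted p with the fold change threshold each called 3 lower (background 2.14% and 2.56%). Ctsk was at -1.24 there (adjusted p = 0.0774 by edgeR) and Sdc1, a proteoglycan that binds chemokines, at -0.86 (adjusted p = 0.0719).

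Among 13 other chemokine and homing receptors of lymphocytes, 6 were higher and 2 lower in SCI against Sham (background 13.4% and 13.6%, the lower count being near it), and 3 were higher in SCI + SCS against Sham (background 6.28%). Ccr7, which guides T cells and dendritic cells to lymph nodes, had 0 to 5 counts in the Sham libraries, 44 to 91 in the SCI libraries and 14 to 60 in the SCI + SCS libraries. Xcr1, a receptor of cross-presenting dendritic cells, rose in SCI by 2.55 (adjusted p = 0.00368 by edgeR). Cxcr4, the receptor for CXCL12, rose by 2.35 in SCI and 1.72 in SCI + SCS against Sham (adjusted p = 0.00216 and 0.0111 by edgeR). Itgal, an integrin chain of leukocytes, passed in SCI + SCS against Sham at 1.62 (adjusted p = 0.0249). S1pr5 and S1pr1, sphingosine phosphate receptors that oligodendrocytes, astrocytes and endothelium also carry, were lower in SCI by log2FC values of -1.62 and -1.05. Between SCI + SCS and SCI, 0 of the 13 were called by edgeR, where Cxcr4 stood at -0.65 and S1pr1 at 0.71 (adjusted p = 0.0774 and 0.0833 by edgeR, 0.000278 and 0.00154 by DESeq2), both without overlap. Of the 13, 2 were higher and 4 lower without overlap (15.7% and 13.9% of all genes, the higher count being near its share). DESeq2 and edgeR's unadjusted p with the fold change threshold each called 2 lower (2.14% and 2.56% of all genes).

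Markers of other cell types were also compared. Of 19 microglia and macrophage genes tested, 15 were higher in SCI and 13 in SCI + SCS than in Sham (background 13.4% and 6.28%). Their summed level was 396 to 809 CPM in the Sham group, 4670 to 5553 in the SCI group and 3612 to 4001 in the SCI + SCS group. In SCI + SCS against SCI, 0 of the 19 were called by edgeR and 2 were lower by DESeq2 (background 2.14%). Without overlap, 11 of the 19 were lower there, against 13.9% of all genes. Of the B and plasma cell genes, 4 of 7 were higher in SCI, with sums of 2.14 to 3.36, 9.17 to 22.6 and 7.13 to 11.6 CPM in the Sham, SCI and SCI + SCS libraries. Of the neutrophil genes, 5 of 7 were higher in SCI, with sums of 4.03 to 9.0, 18.0 to 36.8 and 20.4 to 41.5 CPM. For the endothelium, 1 of 8 was higher and 1 lower in SCI (background 13.4% and 13.6%, both counts being near it), and the sums lay between 409 and 497 CPM in all libraries. Of the 9 adipocyte genes, 5 were tested in SCI against Sham. Of these, 3 were higher, while the other 2 had a log2FC below 0, 1 of them without overlap. The sums were 45.8 to 55.5, 123 to 151 and 65.5 to 82.3 CPM. Lep was at 0 in all libraries, Retn in all Sham and SCI + SCS libraries and Adipoq in all SCI + SCS libraries, so the list may not stand for fat cells. The part of these cells in the levels of the axes was not tested.

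Muscle transcripts varied among the SCI libraries. In SCI replicate 2, the SCI library with the fewest of them, Cxcr3 was at 1.90 CPM and Cxcr6 at 2.75 CPM. Over the 6 fits that left out a library, the log2FC in SCI + SCS against SCI lay between -2.06 and -1.64 for Cxcr3 and between -1.80 and -1.39 for Cxcr6. Without SCI replicate 1, the library richest in muscle, it was -1.64 for Cxcr3, the smallest difference of the 6 fits, and -1.70 for Cxcr6.

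**Figure D5:**
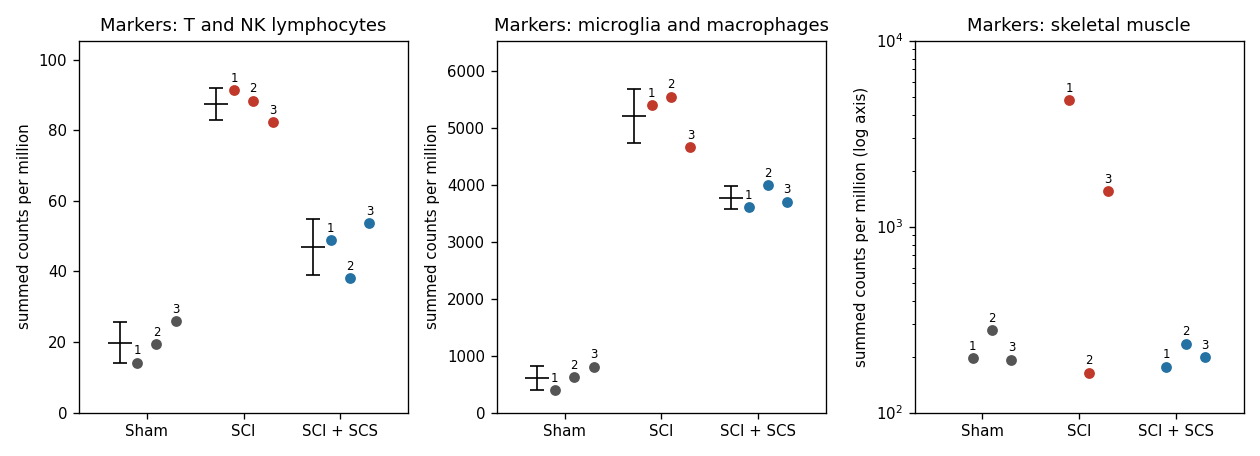
Summed level, in CPM, of marker genes of T and NK cells (30 genes), microglia and macrophages (19 genes) and skeletal muscle (15 genes, log axis), by library and numbered by replicate; marks and bars in the first 2 panels are the mean and SD. The sums of the T and NK markers separate the 3 groups without overlap, although only 7 of the 21 genes tested were higher without overlap in SCI + SCS than in Sham. Muscle markers are high in SCI replicates 1 and 3 only (4786 and 1551).

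To place the receptors among all genes, profiles over the 9 libraries were compared by the root mean square difference of log2 CPM after each gene was centred on its own mean. Over 16273 genes with a symbol, the nearest to Cxcr3 were Ms4a4cl1 (0.28), Nkg7 (0.30), Clec4a1 (0.33), Psmb8 (0.36) and Asb2 (0.39). Nkg7 is a granule gene of NK and cytotoxic T cells, Clec4a1 a lectin of myeloid cells and Psmb8 an interferon-induced proteasome subunit. Nearest to Cxcr6 were Tspan32 (0.22), Xcr1 (0.23), Pilrb1 (0.28), Pparg (0.28) and Lck (0.30). Lck is the kinase of T cell receptor signaling, and Pparg a nuclear receptor of fat cells and macrophages. Ms4a4cl1 had 0 to 70 counts per library and Pilrb1 0 to 32, and the 0.1 CPM added before the log shrinks the differences of such low genes. In SCI against Sham, Pilrb1 had a log2FC of 7.57 and Cxcr6 of 1.95. All genes were compared over the same 9 libraries, so these are descriptions only.

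The ligands had other neighbours. Cxcl10 was nearest to Adam33 (0.25), LOC102556096 (0.26) and Zbp1 (0.28), a sensor of nucleic acids, and Cxcl11 to Rtp4 (0.20), an interferon-induced gene, Tubb6 (0.21) and Cdca3 (0.23). Cxcl16 was nearest to Vim (0.13), the intermediate filament gene of glia and macrophages, Ppic (0.17) and Tmem37 (0.18). The nearest to Cxcl9, Tent5b, Meiob and LOC102549668, stood farther off at 0.43 to 0.44. The measure is not scaled to a gene's own spread, however. The root mean square of log2 CPM about its mean was 1.39 for Cxcl9, 1.22 for Cxcr3 and 0.85 for Cxcr6, so distances are not directly comparable between these genes. Among the 6 genes themselves, the nearest pair was Cxcl10 and Cxcl16 (0.50) and the farthest was Cxcl9 and Cxcr6 (0.99).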

How the data were processed

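The authors extracted RNA from the cord, enriched mRNA with oligo(dT) beads and sequenced it. The submitters' processing notes name fastp 0.23.2, HISAT2 2.2.1 and mRatBN7.2, and the counting program is not given in the sources used here. The authors deposited raw counts per gene, and FPKM (counts divided by gene length and library depth) in a further file. Library totals were 62844376 to 88358570 counts, and 3 counts set the floor.

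Libraries were grouped by the labels, 3 rats per group. Counts were compared over the 6 libraries of each pair of groups by the quasi-likelihood test of edgeR 4.0.16 (R 4.3.3; TMM scaling, default filter, no covariates), with Benjamini-Hochberg adjustment over all genes tested and calls at |log2FC|>1 and adjusted p under 0.05. The SE is the log2FC divided by the square root of F. The study's methods name DESeq2, which was run as an alternative (version 1.42.0). FPKM were tested as log2(FPKM + 1) and log2(FPKM + 0.1) with limma 3.58.1, at a mean of at least 0.1 or without filter, where fold changes of low genes are understated. Ratios were compared by exact permutation in SciPy 1.17.1. The scripts were tested on simulated data. The p-values measure the spread between 3 libraries per group, and copies made by PCR were not told apart from separate molecules.

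The genes and lists were chosen with earlier results of these data known. From each pathway list, up to 3 higher and 3 lower called genes without overlap and with the highest |log2FC| were named (with none called, the 2 of smallest p), besides genes chosen by role (Ifng, Irf1, Adam10, Adam17, Ackr3, Dpp4, and 1 that is not reported here), genes overlapping a member, and the nearest profiles (5 per receptor, 3 per ligand, on log2(CPM + 0.1)). Columns of all 9 samples were mapped by name. Alternatives were the size factors, filters, a fit of all 9 libraries, the replicate block, summed rows of an identifier, removal of muscle and adipocyte genes, and leaving out each library. Ligand to receptor ratios were added after seeing the data.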

Additional observations from a re-analysis of the deposited data

How the results depend on the processing

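Over 656 recomputed values of 42 results, 591 kept their direction and side of the threshold or stayed within 1.5 times the count. In SCI against Sham, log2(FPKM + 1) gave 2649 genes called in place of 4800, 30 list genes in place of 53, and log2FC values of 0.90 for Cxcr3 and 0.54 for Cxcr6, below the fold change threshold. With no fold change threshold 8796 genes passed. In SCI + SCS against SCI, 1 gene passed in edgeR, 771 in DESeq2 and 988 at an unadjusted p under 0.05 with the fold change threshold. Of the axes, 2 genes (Cxcr3 at -1.83 and Cxcr6 at -1.64 in DESeq2, -1.82 and -1.63 at the unadjusted p) were called lower by either, with 14 and 16 list genes. None passed with at least 10 counts in every library or with summed rows (0 genes each), and limma on FPKM called 20, 19 and 5 genes (pseudocount 1, 0.1, and 0.1 unfiltered), with 1 list gene under the first pair. In SCI + SCS against Sham, log2(FPKM + 1) gave 921 genes called in place of 2068 and 0.87 for Cxcl11, and 5710 passed without a fold change threshold. The cause of these shifts was not tested.

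Leaving out 1 library gave 3908 to 5108 genes, 47 to 56 list genes and all 6 members in SCI against Sham, 0 to 123 genes and 0 to 3 list genes in SCI + SCS against SCI, and 950 to 2891 genes, 12 to 30 list genes and 0 to 5 members in SCI + SCS against Sham. In the last, the log2FC ranged from 0.90 to 1.90 for Cxcr3, 1.97 to 2.94 for Cxcl9, 1.61 to 2.59 for Cxcl10, 1.79 to 2.37 for Cxcl11 and 1.41 to 2.45 for Cxcl16. Cxcr3 per 100 Cd3 counts differed between SCI and Sham by 4.79, and by -4.01 to 17.8 when a library was left out, with the sign turned without Sham replicate 1 or SCI replicate 3 (-0.28). For SCI + SCS against SCI the T and NK list as denominator turned the differences to -1.30 for Cxcr3 and -0.97 for Cxcr6, and FPKM turned that of Cxcr6 to -4.76. The mean ratio of Cxcl16 to Cxcr6 differed between SCI and Sham by -4.27 in FPKM and 20.5 in counts.

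Same-numbered libraries did not deviate together, with mean correlations of 0.13 for SCI and Sham, -0.12 for SCI + SCS and SCI, and -0.21 for SCI + SCS and Sham, and come from different rats. With the replicate number as a block, SCI + SCS against SCI had 0 genes called and SCI + SCS against Sham had 715, with 11 list genes. Cxcl9 was then the 1 member called in the latter, and the block left Cxcl10 at 2.17, Cxcl11 at 2.02 and Cxcl16 at 2.06 with adjusted p of 0.0720, 0.0579 and 0.110 in edgeR. The block kept all 6 members called in SCI against Sham. Depth limits the low genes, with as few as 8 counts for Cxcr3 and 22 for Cxcr6.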
